A study of Mus musculus with 15 samples.

Results

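The genes described here are 58 expressed genes spread along mouse chromosome 14, of 37310 genes in the count table. They were listed by their location, not by their own change, but the chromosome was chosen by the log2 differences of its genes between cMyc-KO and wild type, seen to be low as a body. Their values in cMyc-KO against its wild type are therefore a description with no test, and only the knockouts of Taf5l and Taf6l, which played no part in the choice, are tested. Each symbol named 1 row of the table, and all 58 passed the filter on low counts in both experiments. The question asked of cMyc-KO is whether the fall is the same for all of them and, if not, which genes, among them Apex1 and Ipo4, lie beyond it.

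RNA was measured in 15 libraries of J1, a mouse embryonic stem cell line, grown in fetal calf serum with leukaemia inhibitory factor. A first experiment held a knockout of Taf5l (Taf5l-KO), a knockout of Taf6l (Taf6l-KO) and unmodified J1 cells (WT-Taf), and a second held a knockout of Myc (cMyc-KO) and its own unmodified J1 cells (WT-Myc), with 3 libraries in each group. Nothing in the labels ties the replicates to separate cultures or gives the number of clones in a knockout, and the descriptions of all cMyc-KO libraries carry the same code. The p-values therefore rest on a spread among libraries that may be technical. Neither drug nor time course was part of the design.

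MYC is a transcription factor that binds DNA with its partner MAX, most tightly at the short palindrome called the E-box, and it raises genes of growth, ribosome making and metabolism. TAF5L and TAF6L are subunits of SAGA, a coactivator complex that acetylates histones at promoters. Genes that sit side by side on a chromosome usually differ in function and promoter, so the chromosome 14 genes hold enzymes of DNA repair, subunits of chromatin and RNA-processing complexes, proteasome parts, nuclear import receptors and metabolic enzymes. Gene order, strand and coding status were taken from GENCODE M21 (GRCm38), whereas the processing notes of the files name mm9, so positions are given as order only.

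Total counts ran from 14935631 to 27650813 per library. Small non-coding RNAs held 1.99% to 3.10% of counts in the Taf experiment but 0.0206% to 0.0569% in the Myc experiment, although the labels describe 1 library protocol, so levels were compared within an experiment unless stated. Myc itself was 29.2 ± 1.605 CPM (counts scaled to the size of each library; SD, n = 3) in cMyc-KO and 66.8 ± 2.08 in WT-Myc. In the count table cMyc-KO replicate 3 stood apart. Chi-square divided by its degrees of freedom was 36.4 and 26.3 against the other 2 cMyc-KO libraries but 5.07 between those 2. For WT-Myc replicate 3 it was 9.32 and 7.65, against 3.47 between the other 2 WT-Myc libraries. Pairs of Taf5l-KO libraries gave 9.6 to 14.1, pairs of Taf6l-KO 2.69 to 6.92 and pairs of WT-Taf 2.68 to 3.61. All 7 stem cell markers were present in each group, and 8 feeder fibroblast markers summed to 4.201 to 8.89 CPM with 3 to 5 of them at 0. The stem cell markers summed to 5438 to 5809 CPM in cMyc-KO against 5028 to 5235 in WT-Myc. At an edgeR adjusted p under 0.05, 3 were called higher and 0 lower. The 5 endoderm markers summed to 7.05 to 8.97 CPM against 6.12 to 6.91, and 1 of 3 tested was called higher. The 2 neuroectoderm markers summed to 14.07 to 16.85 CPM against 18.5 to 19.1, and 1 was called lower. Tdh, Gata4 and Sox7 among these markers lie on chromosome 14. In cMyc-KO 4 trophectoderm markers summed to 38.1 to 44.5 CPM against 19.6 to 22.7 in WT-Myc. Only 2 of the 4 passed the filter on low counts, both called higher. The lowest of the 4, Cdx2, stood at 0.12 CPM in cMyc-KO and 0.27 in WT-Myc. The part of all these markers in the results was not tested. In bulk RNA, fewer cells of a type and less RNA per cell cannot be told apart.

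The fall in cMyc-KO was not uniform. Of the 58 genes, 44 were lower and 0 higher at an adjusted p under 0.05 in edgeR's fit, where 19.5% of the 14563 tested genes were called lower and 15.2% higher. The median log2 difference was -0.58, with quartiles of -0.90 and -0.26 and a range from -1.68 for Mmp14 to 0.18 for Ppp3cb. The SD across the 58 genes was 0.419 on the log2 scale, against a median standard error of 0.068 for a single gene. Over all 14563 tested genes the SD was larger, 0.554. In 46 of them all 3 cMyc-KO libraries lay below all 3 WT-Myc libraries, which held for 26.7% of all tested genes, in 11 the groups overlapped, and only Vdac2, a channel of the outer mitochondrial membrane, had all cMyc-KO libraries above (22.9% of all tested genes did). The other 425 tested chromosome 14 genes had a median of -0.27, all tested genes a median of -0.0018, and the medians of the 19 other chromosomes ran from -0.06 to 0.05.

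The differences followed the order of genes along the chromosome. When the tested coding genes were cut by their cMyc-KO differences into 4 stretches of at least 10 genes, a proximal stretch ending at Eaf1 held 97 other coding genes with a median of 0.01, and a stretch from Hacl1 to Wdfy2, called the low stretch below, held 148 with a median of -0.82 and quartiles of -1.01 and -0.63. A middle stretch from Ctsb to Akap11 held 92 with a median of 0.05, and a distal stretch from Dgkh to the last gene held 54 with a median of -0.41. These stretches were drawn on the differences they describe, so their medians are no test. The median gene of the low stretch stood at 56.6% of its WT-Myc level and that of the distal stretch at 75.2%.

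**Figure D1:**
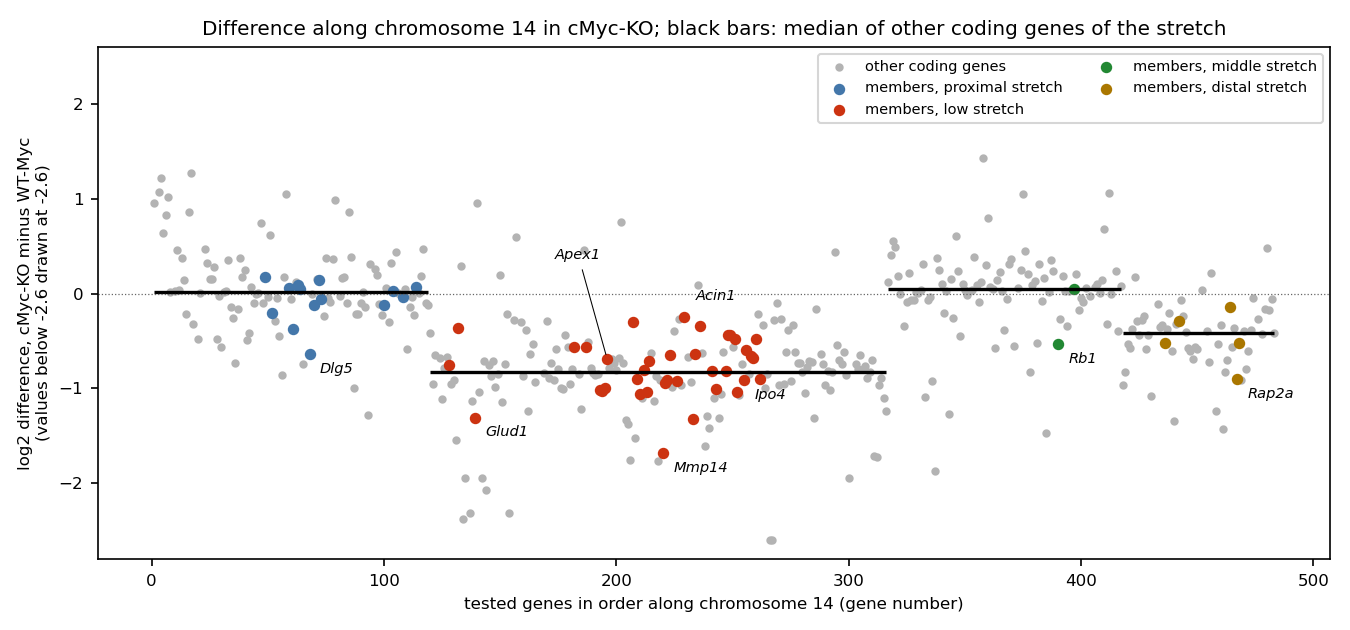
Log2 difference between cMyc-KO and WT-Myc (vertical axis) for tested coding genes in their order along chromosome 14 (horizontal axis), with the 58 genes coloured by stretch, other coding genes in grey and black bars at the median of the other genes. The bars stand at 0.01, -0.82, 0.05 and -0.41 from left to right.

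Both edges of the low stretch were sharp to within a few genes. The last 2 tested coding genes before it, Mettl6 and Eaf1, had log2 differences of -0.10 and -0.12, and the first 3 within it, Hacl1, Btd and Ankrd28, had -0.42, -0.95 and -0.65. At its far edge Ints6 and Wdfy2 had -1.097 and -1.24, and the next genes, Ctsb and Fdft1, had 0.12 and 0.40. Of the 148 other coding genes in the low stretch 126 were called lower and 6 higher, against 18 lower and 12 higher of 97 in the proximal stretch. Cutting was repeated with all tested genes and without any 1 of the 6 libraries, 7 settings in all. The low stretch started at Hacl1 or Btd and ended at Wdfy2 each time. Its median over all coding or tested genes lay between -0.84 and -0.78. The distal stretch was less firm, since it started at Dgkh or Tnfsf11 in these settings. Cut into 3 stretches, the middle and distal genes formed a single stretch from Ctsb to Tmtc4 with a median of -0.07.

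The 58 genes fell to the same stretches. The proximal stretch held 14 with a median of -0.01 and 3 called lower, the low stretch 37 with a median of -0.81, all 37 called lower, the middle stretch 2 with 1 lower, and the distal stretch 5 with a median of -0.52 and 3 lower. All 37 genes of the low stretch had their cMyc-KO libraries below the WT-Myc libraries, including the least lowered, Acin1. Of the 44 calls 40 were kept under every alternative fit. Mapk8, Exoc5, Rb1 and Sec24c each lost the call with the replicate block. Mapk8 also lost it in 5 of the 6 fits that left a library out (all but the one without cMyc-KO replicate 3). Exoc5 and Rb1 lost it in 4 of the 6 (all but those without cMyc-KO or WT-Myc replicate 3). Sec24c also lost its call with library totals and without cMyc-KO replicate 2 or WT-Myc replicate 1 or 2.

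The 3 cMyc-KO libraries each had the low stretch lowest and the distal stretch next. Relative to the mean of WT-Myc, the median over the other coding genes of the low stretch was -0.76 ± 0.041 (SD of 3 libraries, log2 scale) in cMyc-KO, with single libraries from -0.80 to -0.72, and WT-Myc libraries lay between -0.02 and 0.01. When all libraries were set on the WT-Taf mean, the low stretch stood at -0.03 ± 0.018 in WT-Myc, 0.04 ± 0.013 in Taf5l-KO, 0.04 ± 0.0054 in Taf6l-KO and -0.73 ± 0.041 in cMyc-KO. The cMyc-KO libraries were apart from all other 12, which stayed between -0.05 and 0.05. The distal stretch differed: on that scale WT-Myc stood at 0.22 ± 0.068 and cMyc-KO at -0.20 ± 0.021, on opposite sides of WT-Taf, in experiments that were made apart. Those values are of the other coding genes. The 5 distal genes among the 58 had a median of 0.44 ± 0.093 in WT-Myc and -0.03 ± 0.026 in cMyc-KO on the same scale, so WT-Myc stood above WT-Taf and cMyc-KO close to it.

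**Figure D2:**
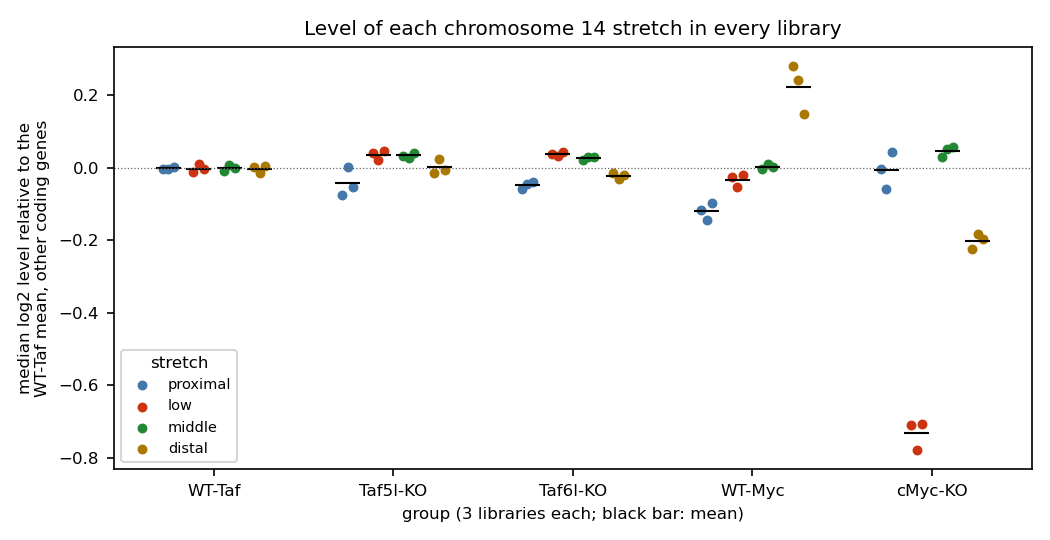
Median log2 level of the other coding genes of each chromosome 14 stretch (vertical axis), relative to the WT-Taf mean, in each of the 15 libraries by group (horizontal axis), with black bars at group means. Only the low stretch of cMyc-KO, at -0.78 to -0.71, lies far from 0, and the distal stretch lies above 0 in WT-Myc and below 0 in cMyc-KO.

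Chromosome 14 held 2.44% ± 0.011 of the counts with a known chromosome in cMyc-KO (SD, n = 3) and 2.88% ± 0.020 in WT-Myc. The cMyc-KO range, 2.42% to 2.45%, did not meet the WT-Myc range, 2.86% to 2.90%. The share was 2.97% ± 0.037 in WT-Taf, 2.94% ± 0.078 in Taf5l-KO and 2.88% ± 0.0093 in Taf6l-KO.

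The genes that lie beyond the fall depend on which fall they are set against. A gene was counted as below a reference when its 95% interval lay wholly below the reference median and its 3 cMyc-KO libraries lay below the 3 WT-Myc libraries after each library was scaled on the reference genes, and as above by the mirror of that rule. Set against the other chromosome 14 genes together, 35 of the 58 were below, 11 above and 12 within, and 34.6% and 31.1% of those other genes were themselves below and above. Set against the other coding genes of their own stretch, 15 were below, 11 above and 32 within, where 19.2% of the other coding genes were below and 17.1% above. Leaving out each of the 6 libraries in turn kept 11 of the 15 below, 9 of the 11 above and 21 of the 32 within. Without cMyc-KO replicate 3 the number above rose to 17.

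**Figure D3:**
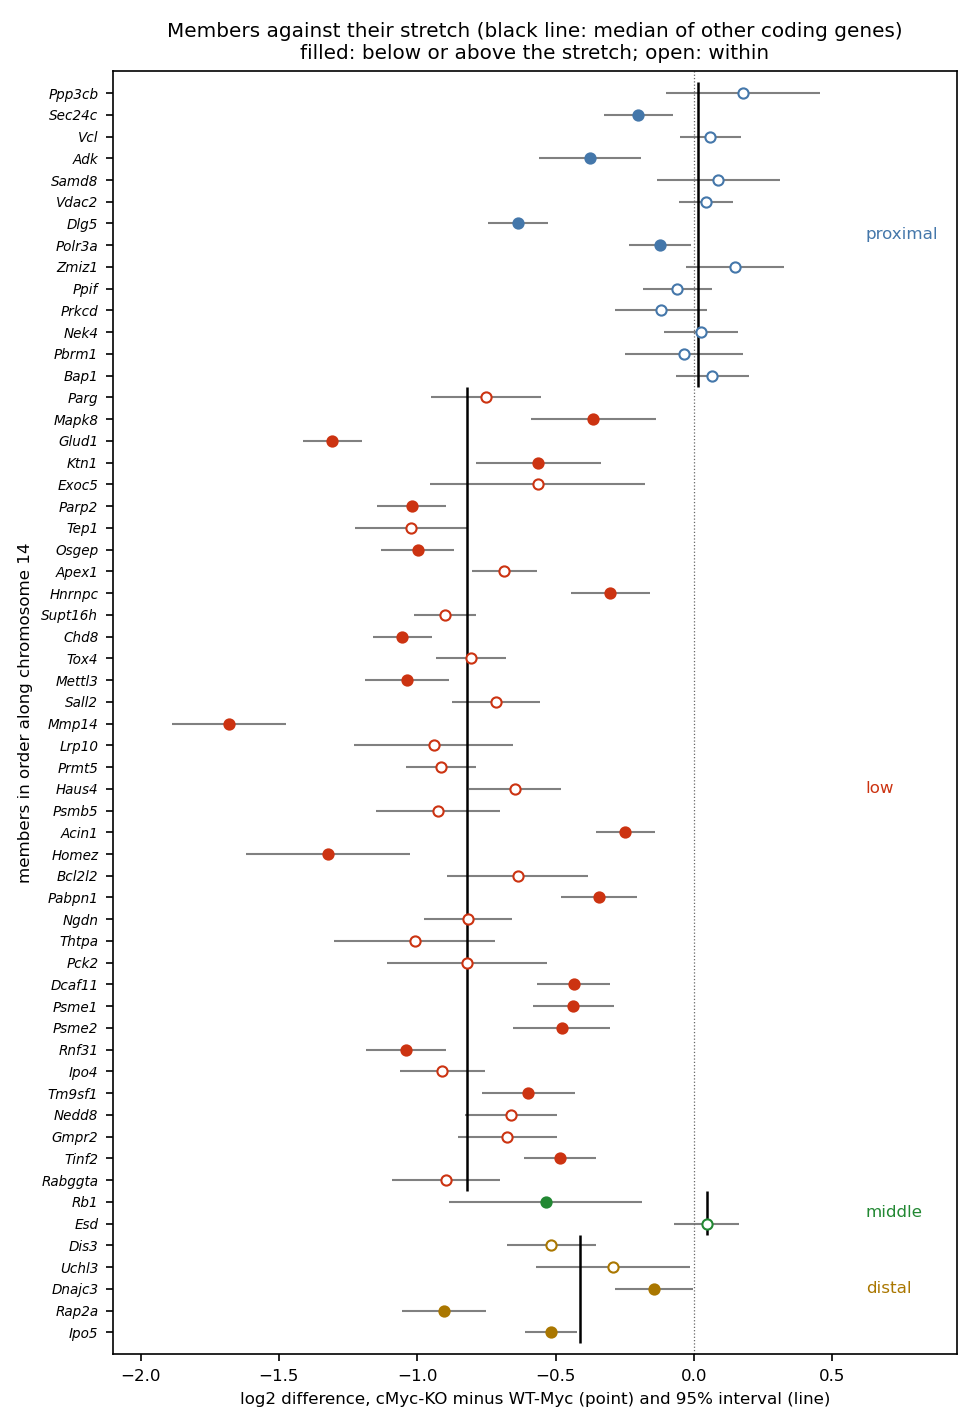
Log2 difference between cMyc-KO and WT-Myc with its 95% interval (horizontal axis) for the 58 genes in chromosome order (vertical axis), filled where the gene is below or above the median of the other coding genes of its stretch (black line). In the low stretch 8 genes lie below and 10 above the line at -0.82, and Apex1 and Ipo4 are open.

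Apex1 and Ipo4 were both below the median of all other chromosome 14 genes, at -0.41 and -0.64 from it, but neither counted as below its own stretch, a reference added after the data were seen. Apex1 (ENSMUSG00000035960) encodes the main endonuclease of base excision repair, which cuts DNA at sites that have lost a base. Its gene model overlaps Tmem55b on the other strand, and whether counting used strand is not stated. It was 151, 149.7 and 140.1 CPM in the cMyc-KO libraries and 234, 229.9 and 245 in WT-Myc, a log2 difference of -0.69 ± 0.051 (SE), or 62.2% of the WT-Myc level. The groups did not overlap, and the difference lay 0.14 above the median of the low stretch. Its interval, -0.80 to -0.57, lay above that median, but scaled to the stretch its cMyc-KO counts of 4615, 4720 and 4083 met the WT-Myc counts of 3900.0, 3889 and 4243. Without cMyc-KO replicate 3, or without WT-Myc replicate 3, Apex1 counted as above its stretch.

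Ipo4 (ENSMUSG00000002319), an importin that carries histones and other cargo into the nucleus, was 87.7, 81.2 and 74.9 CPM in cMyc-KO and 147, 154 and 157 in WT-Myc. The groups did not overlap, with a log2 difference of -0.91 ± 0.067, or 53.2% of the WT-Myc level. That was -0.09 from the stretch median, and its interval of -1.06 to -0.75 spanned the median. Ipo4 stayed within its stretch whichever library was left out.

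Osgep (ENSMUSG00000006289), the catalytic subunit of the KEOPS complex that modifies transfer RNA, is transcribed away from Apex1 from the same stretch of promoter. It was 19.4, 18.5 and 18.5 CPM in cMyc-KO and 37.2, 36.6 and 38.8 in WT-Myc. Its log2 difference, -0.998 ± 0.057, was 0.31 deeper than that of Apex1 and counted as below the stretch, though not without cMyc-KO replicate 3 or WT-Myc replicate 3. Over the 19 pairs of the 58 genes that are neighbours among the tested genes the median absolute difference was 0.23, from under 0.01 for Dcaf11 with Psme1 and for Parp2 with Tep1 to 0.74 for Mmp14 with Lrp10.

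Promoters from RefSeq (GRCm38.p6), 250 bases before to 50 after the gene start, matched 53 of the 58 genes, all but Polr3a, Supt16h, Tep1, Rb1 and Vdac2. They were searched for the E-box CACGTG, which reads the same on both strands. It was present in 9 of the 53 (16.98%), in 7.15% of all 32851 promoters of that length and in 12.05% of the 9536 genes of the Myc fit that matched by symbol. The windows below show Apex1, with E-boxes on both sides of its start, beside Ipo4 and Parp2 from the low stretch and Bap1 and Pbrm1 from the proximal stretch, whose levels were close to WT-Myc. Capitals mark the E-box.
Apex1, bases 36 to 7 before the start, plus strand, chr14:50924913-50924942: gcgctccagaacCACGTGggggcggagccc
Apex1, first 30 bases of the transcript, plus strand, chr14:50924949-50924978: CACGTGaccacaccaatcgccCACGTGgga
Ipo4, first 30 bases of the transcript, minus strand, chr14:55635655-55635684: gctgtcggagtctcCACGTGccgatcctcc
Parp2, upstream, plus strand, chr14:50807725-50807754: acacgcactcagCACGTGgccccgctgatg
Bap1, upstream, plus strand, chr14:31251334-31251363: ccccgccctccgCACGTGcgcgccctcgcc
Pbrm1, upstream, plus strand, chr14:31018991-31019020: cttctcgggcgcCACGTGcgaactggaact
The 3 E-boxes of Apex1 are the same bases as those of Osgep, read from the other strand.

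Genes with and without an E-box covered overlapping ranges of depth. In the low stretch 6 of the 35 matched genes held one (Ktn1, Parp2, Osgep, Apex1, Dcaf11 and Ipo4), with a median 0.03 above the stretch median and a range from -0.20 to 0.39, and the 29 without one had a median 0.07 above it and a range from -0.86 to 0.57. In the proximal stretch the 3 with an E-box, Prkcd, Pbrm1 and Bap1, had log2 differences of -0.12, -0.04 and 0.07. A match of these letters is a description of the sequence and shows no binding.

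**Figure D4:**
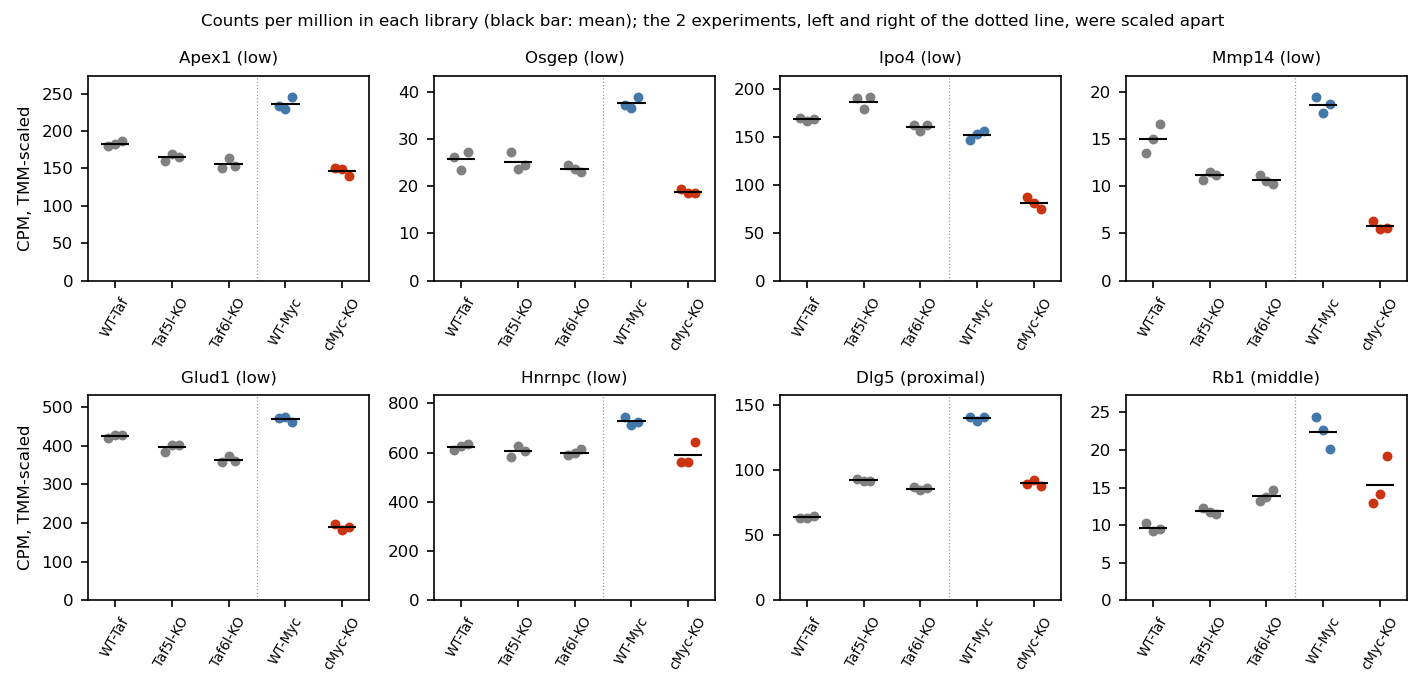
CPM (vertical axes, from 0) in each of the 15 libraries by group for 8 genes, with black bars at group means; the experiments left and right of the dotted line were scaled apart. Apex1, Osgep, Ipo4, Mmp14 and Glud1 of the low stretch are lower in every cMyc-KO library, and Hnrnpc, of the same stretch, stands at 562, 562 and 645 against 714 to 745.

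The genes below the low stretch were Mmp14, Homez, Glud1, Chd8, Rnf31, Mettl3, Parp2 and Osgep, and those above it were Acin1, Hnrnpc, Pabpn1, Mapk8, Dcaf11, Psme1, Psme2, Tinf2, Ktn1 and Tm9sf1. Of the other coding genes in the stretch 17.6% lay below and 16.9% above by the same rule, against 8 and 10 of 37 here. Osgep and Mettl3 no longer counted as below without cMyc-KO replicate 3, without WT-Myc replicate 3 or in DESeq2. Ktn1 counted as above in 2 of the 6 fits that left a library out, those without cMyc-KO replicate 1 or 3, and Tm9sf1 in 4, all but those without cMyc-KO replicate 1 or 2. The SD of the 37 genes was 0.308, against a median standard error of 0.069 for a single gene. It was smaller than the SD of the other coding genes of the stretch, 0.605.

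Among the enzymes of DNA repair and telomere proteins, 5 genes lay in the low stretch. Parp2, a polymerase of poly-ADP-ribose that is switched on by DNA breaks, was 24.7, 23.9 and 25.7 CPM in cMyc-KO and 49.8, 49.6 and 51.3 in WT-Myc, a log2 difference of -1.02 ± 0.054. Parg, which removes poly-ADP-ribose, had -0.75, and Tep1, a protein of the telomerase particle, -1.02. Tinf2 encodes TIN2, a hub of the shelterin complex on telomeres, and was lowered least of the 5, by -0.48 ± 0.056, with 29.8, 28.0 and 29.6 CPM against 39.2, 40.9 and 42.1.

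Of the chromatin and transcription genes 6 lay in the low stretch, with a median of -0.91 and a range from -1.32 to -0.72. Chd8, a chromatin remodeller, was 151, 142 and 151 CPM against 311, 312 and 299, a log2 difference of -1.05 ± 0.047, with no overlap of groups. Homez, a homeobox and leucine zipper protein, had the deepest value at -1.32 ± 0.13 but a low level, 2.22, 1.98 and 2.299 CPM against 5.54, 5.78 and 5.008. Supt16h, a subunit of the histone chaperone FACT, and Prmt5, an arginine methyltransferase of histones and splicing proteins, had -0.90 and -0.91, Tox4 -0.81 and Sall2 -0.72, all within the stretch.

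The RNA-processing genes ran from -1.04 for Mettl3 to -0.25 for Acin1 over 6 genes of the low stretch. Mettl3, the catalytic subunit of the writer of m6A in messenger RNA, was 15.4, 14.4 and 14.4 CPM in cMyc-KO against 29.99, 29.1 and 31.5. Hnrnpc, which binds U-rich stretches of nascent RNA, was 562, 562 and 645 CPM against 745, 714 and 724, a log2 difference of -0.30 ± 0.062. Acin1, a splicing factor, stood at 261, 272 and 255 against 307, 308 and 322, and Pabpn1, the nuclear poly(A)-binding protein, at 159.9, 152 and 147 against 189.9, 185 and 208. These 3 genes kept 78.8% to 84.2% of their WT-Myc level, and all lay above the stretch whichever library was left out. Ngdn, a protein of ribosome making, was at the stretch median, with -0.82.

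Proteasome and ubiquitin-like genes also split. Psmb5, a catalytic subunit of the proteasome core, was 93.5, 89.1 and 72.8 CPM against 156, 156 and 172, a log2 difference of -0.93 ± 0.096, and Rnf31, the ligase of linear ubiquitin chains, had -1.04 ± 0.062. The proteasome activator genes Psme1 and Psme2 had -0.44 ± 0.063 and -0.48 ± 0.075 and Dcaf11, a receptor of a cullin ligase, -0.44 ± 0.058. Those 3 were above the stretch and Rnf31 below it whichever library was left out. Nedd8, a ubiquitin-like modifier of cullins, had -0.66 and lay within.

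The transport genes of the low stretch had values from -0.91 to -0.56. Beside Ipo4, these were Rabggta, a subunit of the enzyme that prenylates Rab proteins, at -0.90, Tm9sf1 at -0.60, Exoc5, a subunit of the exocyst, at -0.57 and Ktn1, a kinesin-binding membrane protein, at -0.56. Exoc5 had the largest standard error of the 58 genes, 0.167, with 15.2, 15.2 and 23.0 CPM in cMyc-KO against 28.7, 27.1 and 23.6, and the lowest WT-Myc library lay close to cMyc-KO replicate 3.

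Glud1, mitochondrial glutamate dehydrogenase, was the most lowered of 4 metabolic genes in the low stretch. It was 196, 182 and 189.6 CPM in cMyc-KO against 472, 474 and 460.4 in WT-Myc, a log2 difference of -1.31 ± 0.046, or 40.4% of the WT-Myc level and -0.49 from the stretch median. Pck2, mitochondrial phosphoenolpyruvate carboxykinase, had -0.82, Thtpa, which hydrolyses thiamine triphosphate, -1.01 and Gmpr2, a reductase of guanosine monophosphate, -0.67, all within the stretch.

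Mmp14, a membrane-anchored matrix metalloproteinase, was the most lowered of all 58. It was 6.302, 5.498 and 5.58 CPM in cMyc-KO against 19.4, 17.7 and 18.7 in WT-Myc, with no overlap, a log2 difference of -1.68 ± 0.089, which is -0.86 from the stretch median. Its neighbour Lrp10, a lipoprotein receptor, had -0.94, within the stretch. Mapk8, which encodes the kinase JNK1, was 12.5, 12.5 and 15.3 CPM against 17.5, 17.8 and 16.8, a log2 difference of -0.36 ± 0.098 and above the stretch. Haus4, of the augmin complex of the spindle, and Bcl2l2, a survival protein, had -0.65 and -0.64.

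Outside the low stretch most of the genes stayed near their WT-Myc level. Of 14 in the proximal stretch, 11 lay between -0.12 and 0.18 with no call, and the groups of libraries overlapped in all of these but Vdac2 and Polr3a. Ppp3cb, a calcineurin subunit, was 34.6, 37.8 and 45.4 CPM against 37.1, 37.1 and 30.2. Bap1, a deubiquitinase and tumour suppressor, was 108, 108 and 97.0 CPM against 100.3, 99.0 and 98.9, and Vcl, which links adhesion sites to actin, 130.4, 133 and 139.5 against 129, 127 and 131. Zmiz1 at 0.15, Samd8 at 0.09 and Vdac2 at 0.04 followed, and Esd of the middle stretch was at 66.5, 67.6 and 63.7 CPM against 64.8, 63.9 and 62.9.

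Within stretches that stood level, 4 genes were lower. Dlg5, a scaffold of cell polarity, was 89.7, 92.4 and 87.9 CPM in cMyc-KO against 141, 138 and 141 in WT-Myc, a log2 difference of -0.64 ± 0.047 in the proximal stretch, whose median was 0.01. Adk, adenosine kinase, had -0.38 ± 0.079 and Sec24c, a COPII coat protein, -0.20 ± 0.054. Rb1, the retinoblastoma protein, was 12.9, 14.1 and 19.2 CPM against 24.4, 22.6 and 20.2, a log2 difference of -0.54 ± 0.15 in the middle stretch, with cMyc-KO replicate 3 close to the lowest WT-Myc library. All 4 stayed below their stretch whichever library was left out, and Polr3a, a subunit of RNA polymerase III, was counted below with -0.12 but not called.

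In the distal stretch Rap2a, a small GTPase, was 20.3, 18.5 and 19.6 CPM against 37.4, 37.4 and 34.4, a log2 difference of -0.90 ± 0.066, which is -0.49 from the stretch median. The importin Ipo5 was 927, 906 and 949 CPM against 1335, 1350.0 and 1300.0 and had -0.52 ± 0.040, below its stretch with all 6 libraries but within it in 5 of the 6 fits that left a library out. Dis3, a nuclease of the RNA exosome, had -0.52 and Uchl3, a deubiquitinase, -0.29. Dnajc3, an endoplasmic reticulum chaperone, had -0.15, above its stretch.

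In the Taf knockouts the chromosome 14 genes moved in both directions. In Taf5l-KO 11 of the 58 fell and 12 rose in edgeR's test with Benjamini-Hochberg adjustment over all 15743 tested genes, where 15.9% of genes fell, 17.4% rose and 33.2% did either. In Taf6l-KO 13 fell and 15 rose, against 18.2% and 19.1% of all genes (37.2% either way). Scaled by library totals the Taf6l-KO split was 9 lower and 19 higher. All 3 knockout libraries lay below WT-Taf for 15 of the 58 in Taf5l-KO (22.0% of all genes) and 21 in Taf6l-KO (23.5%), and above it for 15 (22.7%) and 17 (25.4%). The median log2 difference of the 58 was 0.02 in Taf5l-KO and -0.03 in Taf6l-KO, against 0.00054 and 0.02 over all genes. Both comparisons use the same WT-Taf libraries, so the values of a gene in them are given side by side and are not independent. The low stretch held 11 of the Taf5l-KO calls and 15 of the Taf6l-KO calls over its 37 genes, and its other coding genes had medians of 0.04 and 0.07.

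**Figure D5:**
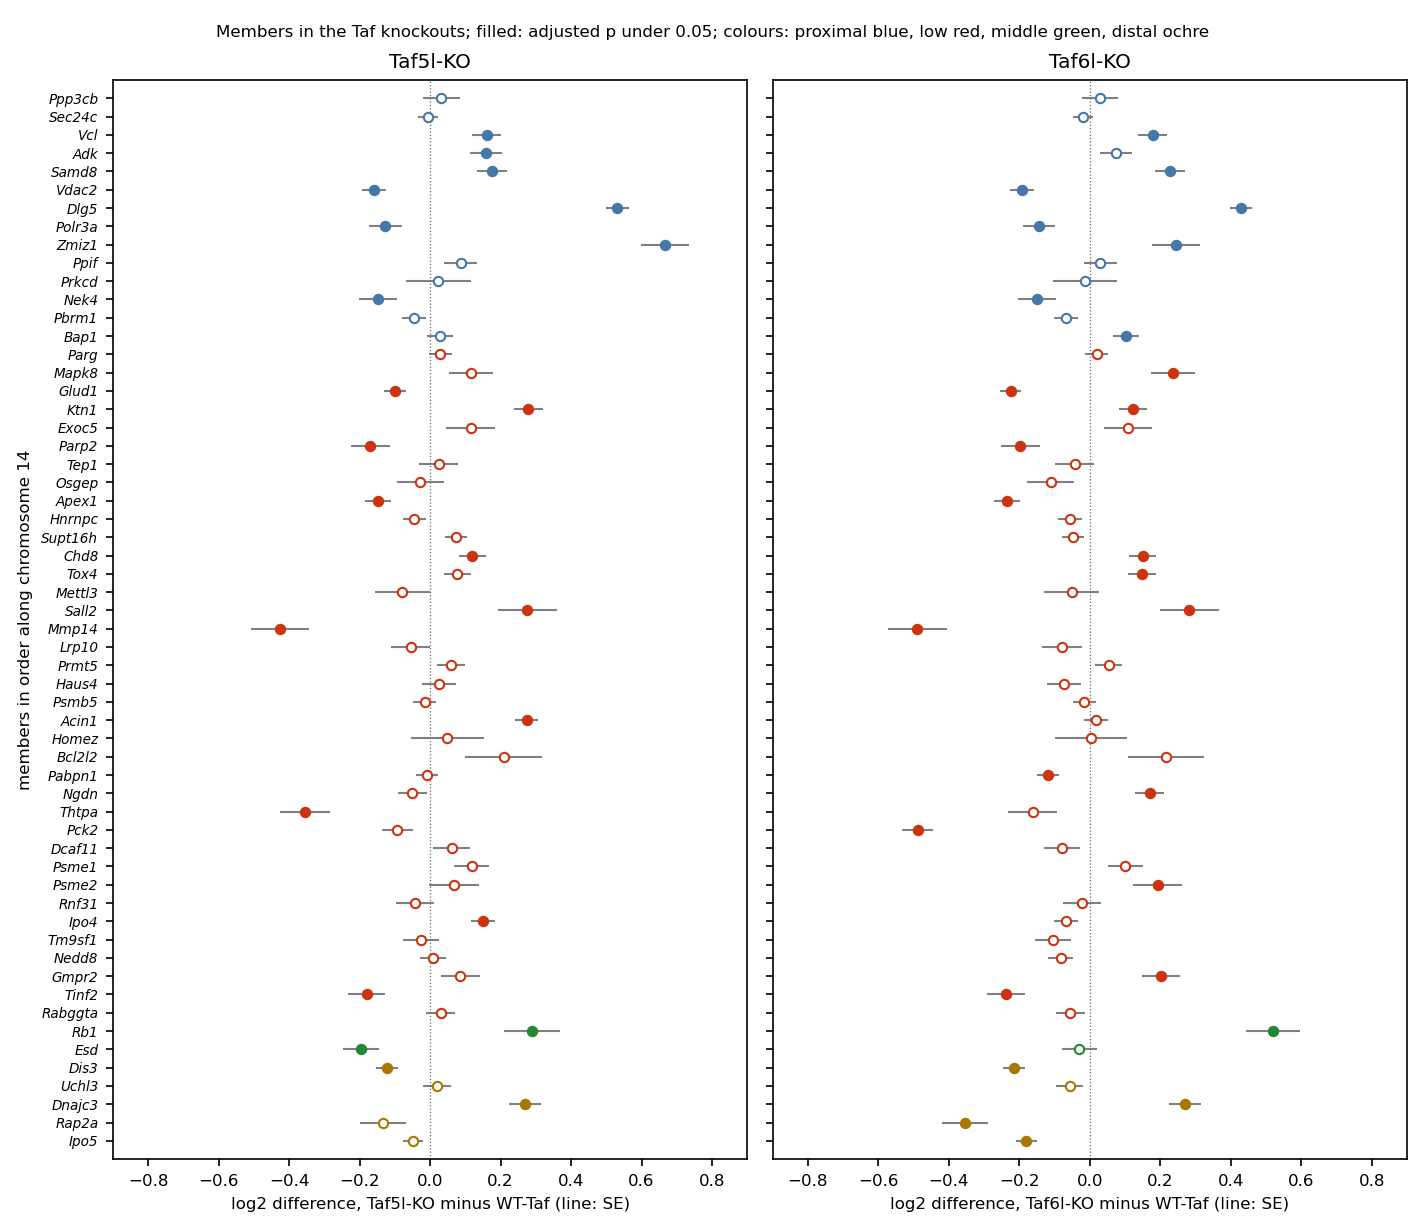
Log2 difference with its standard error (horizontal axes) for the 58 genes in chromosome order (vertical axis) in Taf5l-KO and Taf6l-KO against WT-Taf, filled where the adjusted p was under 0.05. Colours mark the stretch; values lie on both sides of 0 in each stretch, from -0.43 to 0.67 in Taf5l-KO and from -0.49 to 0.52 in Taf6l-KO.

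Of these calls, 11 of 23 in Taf5l-KO and 15 of 28 in Taf6l-KO were kept under every alternative fit. Those lost under at least 1 alternative were Adk, Samd8, Polr3a, Nek4, Glud1, Parp2, Chd8, Sall2, Ipo4, Tinf2, Rb1 and Dis3 in Taf5l-KO. In Taf6l-KO they were Polr3a, Zmiz1, Nek4, Bap1, Mapk8, Ktn1, Parp2, Tox4, Sall2, Pabpn1, Ngdn, Psme2 and Gmpr2. Bap1 in Taf6l-KO lost its call most often, in 9 of 12 alternatives. Polr3a and Nek4 in Taf5l-KO, and Nek4, Ktn1 and Psme2 in Taf6l-KO, each lost it in 7.

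Cell type markers also differed in the Taf knockouts, and their part in these results was not tested. The 7 stem cell markers summed to 3280 to 3379 CPM in Taf5l-KO and 3415 to 3616 in Taf6l-KO against 3965 to 3984 in WT-Taf. Of these, 5 were lower and 1 higher in Taf5l-KO, and 6 were lower and 0 higher in Taf6l-KO, with Klf4 at -0.63 and -0.57. The 2 neuroectoderm markers, Pax6 and Nes, rose in both and summed to 9.52 to 12.9 and 12.4 to 14.3 CPM against 5.75 to 7.72. Trophectoderm markers summed to 23.1 to 24.6 and 26.5 to 29.8 CPM against 19.4 to 20.5, with Krt8 and Krt18 higher in both, and feeder fibroblast markers to 4.201 to 5.23 and 5.19 to 6.47 against 7.52 to 8.89, with Thy1 lower in both. Endoderm markers summed to 4.84 to 5.404 and 5.04 to 5.99 CPM against 5.09 to 6.07, with Gata6 and Sox7 lower and Gata4 higher in both. Gata4, Sox7 and the stem cell marker Tdh are themselves genes of the middle stretch of chromosome 14.

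The changes were small: 1 gene in Taf5l-KO and 0 in Taf6l-KO passed the test with a change of at least 1.5-fold. That gene was Zmiz1, a coactivator related to the PIAS proteins, at 51.9, 45.6 and 48.1 CPM in Taf5l-KO against 31.2, 31.2 and 29.0 in WT-Taf, a log2 difference of 0.67 ± 0.066 (edgeR adjusted p = 4.12e-06). In Taf6l-KO it was 40.1, 34.2 and 34.0 CPM, a log2 difference of 0.24 (edgeR adjusted p = 0.0125). All knockout libraries lay above all WT-Taf libraries, and the difference between the knockouts was not tested.

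Dlg5, lower in cMyc-KO, rose in both: 93.4, 91.4 and 91.7 CPM in Taf5l-KO and 86.9, 84.5 and 85.9 in Taf6l-KO against 63.5, 63.3 and 64.4 in WT-Taf. The log2 differences were 0.53 (edgeR adjusted p = 2.66e-08) and 0.43 (edgeR adjusted p = 1.41e-07), with no overlap of groups. Rb1 rose in both as well, with 0.29 in Taf5l-KO and 0.52 in Taf6l-KO, from 10.2, 9.25 and 9.54 CPM in WT-Taf to 12.3, 11.7 and 11.5 and to 13.2, 13.7 and 14.7. Dnajc3 rose by 0.27 in each knockout, from 40.7 to 41.5 CPM in WT-Taf to at least 47.6.

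Mmp14, the most lowered gene in cMyc-KO, fell in both Taf knockouts. It was 10.6, 11.5 and 11.2 CPM in Taf5l-KO and 11.2, 10.6 and 10.2 in Taf6l-KO against 13.5, 15.0 and 16.5 in WT-Taf, with log2 differences of -0.43 (edgeR adjusted p = 0.00125) and -0.49 (edgeR adjusted p = 0.00033). Glud1, at 384, 403 and 403 CPM in Taf5l-KO, 357, 373 and 361 in Taf6l-KO and 420.0, 427 and 428 in WT-Taf, fell by 0.10 and 0.225. The knockout libraries of both genes lay below those of WT-Taf.

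Apex1 fell in both, from 181, 182 and 187 CPM in WT-Taf to 161, 169 and 166 in Taf5l-KO and to 150.2, 164 and 154 in Taf6l-KO. The log2 differences were -0.15 (edgeR adjusted p = 0.00631) and -0.23 (edgeR adjusted p = 0.000166), with no overlap, and each was smaller than its -0.69 in cMyc-KO, a comparison across experiments that was not tested. Ipo4 rose in Taf5l-KO, at 191, 179 and 191 CPM against 169.9, 167 and 169, a log2 difference of 0.15 (edgeR adjusted p = 0.0037). In Taf6l-KO Ipo4 was 163, 156 and 163 CPM, with a log2 difference of -0.07 and no call (edgeR adjusted p = 0.136). Osgep had no call in either, with log2 differences of -0.03 and -0.11.

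Other DNA repair and telomere genes that fell in both were Parp2, by 0.17 and 0.20, and Tinf2, by 0.18 and 0.24, and Bap1 rose by 0.10 in Taf6l-KO. Of the chromatin genes Chd8 rose by 0.12 and 0.15 and Sall2 by 0.28 and 0.28, Tox4 rose in Taf6l-KO, and Polr3a fell by 0.13 and 0.14. Of the RNA-processing genes Dis3 fell by 0.12 and 0.22, from 166, 168 and 171 CPM in WT-Taf. Acin1 rose in Taf5l-KO, to 184, 183 and 187 CPM from 147, 153 and 158, and was 154, 158 and 151 in Taf6l-KO, and Pabpn1 fell and Ngdn rose in Taf6l-KO.

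None of the 7 proteasome and ubiquitin-like genes was called in Taf5l-KO, where 33.2% of all tested genes were. Psme2 alone was called in Taf6l-KO, with a rise of 0.19, where 37.2% of all tested genes were called. That call was lost in 7 of 12 alternative fits. Of the metabolic genes, Pck2 fell in Taf6l-KO, from 41.8, 39.9 and 41.4 CPM in WT-Taf to 28.1, 30.3 and 29.4, a log2 difference of -0.49 (edgeR adjusted p = 9.04e-07), and was -0.09 with no call in Taf5l-KO. Thtpa fell in Taf5l-KO, from 14.3, 14.6 and 15.8 CPM to 12.3, 11.4 and 11.3, a log2 difference of -0.35 (edgeR adjusted p = 0.00161), and was -0.16 with no call in Taf6l-KO. Vdac2 fell in both, with -0.16 and -0.19, and Samd8, a sphingomyelin synthase relative of the endoplasmic reticulum, rose in both, with 0.17 and 0.23. Esd fell and Adk rose in Taf5l-KO, with -0.20 and 0.16, and Gmpr2 rose in Taf6l-KO, with 0.20.

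Of the transport genes Ktn1 rose in both, with 0.28 and 0.12, and Rap2a and Ipo5 fell in Taf6l-KO, with -0.35 and -0.18; Ipo5 was 747, 737 and 737 CPM there against 829, 834 and 852 in WT-Taf. Of the remaining signalling genes Vcl rose by 0.16 and 0.18 and Nek4, a kinase of the NIMA family, fell by 0.15 in each. Mapk8 rose in Taf6l-KO, with 0.24.

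Genes on other chromosomes whose products work with these proteins were read from 17 lists. Of 94 tested partner genes, 14 were lower and 17 higher in cMyc-KO (14.9% and 18.1%), near the 19.5% and 15.2% of all genes, with a median of 0.04. The 15 partners of Psmb5, Psme1 and Psme2 in the proteasome had a median of 0.22, and 9 rose and 1, Psme4, fell; Psmb1 was 326 ± 10.7 CPM in cMyc-KO against 201.0 ± 4.41 (SD, n = 3), a log2 difference of 0.70, and Psma4 had 0.36. Ssrp1, the other FACT subunit, had -0.06, and Mettl14, the other core m6A writer, 0.13, neither called. Of the further m6A writer partners, Rbm15 was called lower, at -0.35, and Wtap higher, at 0.32. Of 8 importins Ipo8 alone was called, at -0.18. In Taf5l-KO 25 of the 94 fell (26.6%, against 15.9% of all genes) and 16 rose, and in Taf6l-KO 29 fell (30.9%, against 18.2%) and 17 rose. Of 54 known MYC targets on other chromosomes, genes of ribosome making and metabolism, 20 fell (37.0%, against 19.5% of all genes) and 3 rose (5.56%, against 15.2%) in cMyc-KO, with a median of -0.10, and the largest differences were Sord at -1.34 and Ccnd2 at -1.02. In Taf5l-KO 23 of them fell (42.6%, against 15.9% of all genes) and 4 rose (7.41%, against 17.4%). In Taf6l-KO 26 of them fell (48.1%, against 18.2%) and 8 rose (14.8%, against 19.1%).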

How the data were processed

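The 15 RNA-seq libraries of mouse embryonic stem cells form 5 groups of 3, read from the sample titles. Estimated counts, rounded to whole numbers, and FPKM were deposited by the authors for each gene. Per the submitters' processing notes the tools were Salmon 0.8.2 and DESeq2 1.14.1 and the build mm9, with no role stated, and which gene models were used was not given. Levels were not compared between genes, since the deposited FPKM imply a length under 200 bases for 9 of the 58 genes. TPM values were left aside. The chromosome came from GENCODE M21 for 32620 genes (87.4%) by Ensembl ID. Counting by strand is not stated, and 14 of the 58 overlap an expressed gene on the other strand (a mean of at least 100 counts), Apex1 with Tmem55b, Pbrm1 with Gnl3 and Rb1 with Rcbtb2 among them, so their reads may be shared.

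The quasi-likelihood test of edgeR 4.0.16 (run in R 4.3.3, after filterByExpr and TMM scaling) was fitted to the counts, the 6 libraries of the Myc experiment together and the 9 of the Taf experiment together, with Benjamini-Hochberg adjustment over all genes and a threshold of 0.05. The standard error is the log2 difference divided by the square root of F. CPM are TMM-scaled. The coefficient of variation that edgeR estimated between libraries of a group was 10.2% in the Myc experiment and 4.23% in the Taf experiment. Whether that variation is biological or technical is not known. The fit was also run on simulated counts, with an outcome that is not given here. Those counts had the same dispersion setting for all genes, fewer changed genes than were called here and no outlying library.

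The 58 genes, the lists and the rule for genes printed per library (the 6 lowest and 6 highest in cMyc-KO, Apex1, Ipo4, Osgep, and up to 5 each way in each Taf knockout) were chosen with earlier results of these data known, and the stretches and the comparison with them were added after seeing the data. Other genes whose library values are given were picked after their values were seen. Replicate numbers did not pair libraries. The fit was repeated with RLE scaling, with library totals in place of TMM, unfiltered, in DESeq2 1.42.0, with the replicate block, with all 15 libraries in a single fit, with each library left out, and with other references for the shift.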

Additional observations from a re-analysis of the deposited data

How the results depend on the processing

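Over all 58 genes, no called difference changed sign under any alternative, and 4 of 44 calls in cMyc-KO (Sec24c, Mapk8, Exoc5 and Rb1), 12 of 23 in Taf5l-KO and 13 of 28 in Taf6l-KO were lost under at least 1; the cause was not tested. Among differences not called, 2, 12 and 16 changed sign under at least 1. The median of the 58 in cMyc-KO (-0.58) was -0.54 with library totals, -0.56 without a filter, -0.56 in DESeq2, -0.55 with all 15 libraries, and -0.62 to -0.55 with a library left out; that of the 37 low-stretch genes (-0.81) was -0.77 with library totals and -0.83 to -0.76 with a library left out. With the median of the 58 as reference, 18 were below and 20 above in place of 35 and 11; with a library left out these were 32 to 35 and 9 to 14. Against the own stretch 12 to 16 were below and 9 to 17 above with a library left out, 17 without cMyc-KO replicate 3. The chromosome 14 share differed by -0.444 percentage points in cMyc-KO, by -0.476 over coding genes, by -0.397 without the 10 most abundant chromosome 14 genes and by -0.455 to -0.437 with a library left out. Calls with a library left out were 40 to 47 in cMyc-KO, 16 to 22 in Taf5l-KO and 21 to 25 in Taf6l-KO.

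Same-numbered libraries did not deviate together (correlations of -0.255 to -0.0274 in the Myc and -0.0827 to 0.0709 in the Taf experiment). The -0.255 was between the replicate 3 libraries of cMyc-KO and WT-Myc. Libraries of unlike number in the Myc experiment gave -0.0862 to 0.218, the highest for cMyc-KO replicate 1 with WT-Myc replicate 3. With the replicate block 40, 23 and 28 of the 58 were called in cMyc-KO, Taf5l-KO and Taf6l-KO, the median was -0.59, that of the low stretch -0.81, 33 were below and 9 above the chromosome 14 shift, and 12 below and 10 above the own stretch.

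Precision rests on 3 libraries a group, and standard errors of the 58 in cMyc-KO were largest for Exoc5, at 0.167, and Rb1, at 0.151 (log2 scale).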
